A study of Homo sapiens with 6 samples.

Results

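Matrix proteases and their inhibitors were described in BT-549 cells, a human triple-negative breast cancer line, grown in adipocyte-conditioned medium (ACM) or unconditioned medium (UCM). The members were 38 genes chosen by symbol from the 63140 genes listed. They comprise 14 matrix metalloproteinases (MMPs), 7 ADAM and 5 ADAMTS metalloproteinases, the 4 tissue inhibitors of metalloproteinases (TIMPs), 3 genes of plasminogen activation (PLAU, PLAUR and PLAT) and 5 serpins. Of the 38, 29 had enough reads to be tested and 9 did not.

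MMPs are zinc enzymes that are mostly made as inactive proenzymes and that cut collagens, fibronectin and other matrix proteins once their prodomain is removed. ADAMs are membrane-anchored relatives that release growth factors and receptors from the cell surface, and ADAMTS enzymes are secreted relatives that mainly cut proteoglycans. TIMPs bind the active site of these enzymes, whereas serpins trap serine proteases such as the urokinase encoded by PLAU, which turns plasminogen into plasmin. In breast tumors such enzymes are known for remodelling the matrix at the invasive edge.

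RNA of 3 libraries per medium was sequenced after 24 h, all from cells of wild-type genotype. ACM came from OP9 cells, a mouse stromal line that was turned into adipocytes in serum-poor medium with insulin, oleate and albumin. The labels name ACM diluted with UCM, whereas the methods of the study name undiluted ACM for sequencing, and the formula of UCM is not given in the sources used here. The base medium, serum and oleate could therefore differ between the media together with what the adipocytes secreted, and these cannot be told apart. Replicates were grown and lysed in wells of a plate, and no source says that they came from separate passages or days, so the p-values measure the spread between these wells.

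Libraries held 17135288 to 21053257 expected counts, and the biological coefficient of variation was 0.115. BT-549 is labelled epithelial, but all 7 epithelial markers looked at, among them EPCAM and CDH1, stayed under 1 TPM (a transcript level scaled for gene length and library size) in every library, whereas 6 mesenchymal-basal markers summed to 3797 to 4605 TPM. Of the receptors that define triple-negative tumors, ESR1 and PGR were under 1 TPM and ERBB2 lay between 25.5 and 32.4 TPM. Of 6 adipocyte and 5 leukocyte markers, only CFD and CD68 reached 1 TPM in any library, and all 4 endothelial markers stayed under it. CD68, a lysosomal protein of macrophages and other cells, rose from 4.79 to 6.59 CPM (counts scaled for library size but not for length) in UCM to 12.1 to 29.1 CPM in ACM (log2 fold change 1.76, edgeR adjusted p = 0.0335), while ADIPOQ, LEP and CIDEC, which define adipocytes, and CD3E had no count in any library. CFD, an adipocyte product, stood at 2.38, 2.08 and 2.99 CPM in ACM and at 1.42, 1.34 and 1.92 CPM in UCM (log2 fold change 0.67, edgeR adjusted p = 0.196), past the thresholds of the study and without overlap. PTPRC, the marker shared by leukocytes, stayed under 1 TPM, and the part of other cells in the results was not tested. In such bulk libraries, more cells that express a gene and more RNA per cell cannot be told apart.

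Several members lie in 1 gene cluster. MMP7, MMP10, MMP1, MMP3 and MMP13 lie, in order of rising coordinate, within 435.2 kb of chromosome 11 (GRCh38, GENCODE 44), all on the minus strand. MMP20, MMP27 and MMP8, which are not members, lie between MMP7 and MMP10, and MMP12 lies between MMP3 and MMP13. In coordinates, the low end of MMP1 lies 8773 bases above the high end of MMP10. The low end of MMP3 lies 37641 bases above the high end of MMP1. On the minus strand the low end is where a gene ends, so these are not distances between gene starts. MMP3 and MMP1 had the highest fold changes of the tested members, whereas MMP7, MMP10 and MMP13 had too few reads to test.

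The AP-1 element is the sequence that Fos and Jun proteins bind, and it is known from the promoters of collagenases and stromelysins. The RefSeq promoter table (GRCh38.p14) held an entry for 23 of the 38 members, with MMP1, MMP2 and MMP3 not among them. In the 250 bases before the gene start, TGANTCA, read on both strands, was found in 6 of the 23 (MMP7, MMP10, PLAUR, ADAMTS12, SERPINB2 and SERPINB8) and in 6.57% of all 35116 promoters of that table. Members were counted by gene and the table by promoter entry, so these shares are not strictly alike. The same windows of the 23 members held no match to the consensus of NF-kB, present in 5.21% of all promoters, and none to TGACGTCA, the cAMP response element, present in 1.65%. The stretches of MMP7 and MMP10 are shown because these genes of the MMP1 and MMP3 cluster hold the motif and yet had almost no reads. That of PLAUR is shown because the gene was higher in ACM. That of TIMP1, which rose, is shown because it holds no exact match to TGANTCA, although the near match tgagtaa lies in it. Each is given 5' to 3' on the strand of the gene, and capitals mark the match. The stretches of MMP7, MMP10 and TIMP1 end before the GENCODE gene, whereas that of PLAUR lies before the RefSeq start but inside the longer GENCODE gene.
MMP7, chr11:102530751-102530997, minus strand: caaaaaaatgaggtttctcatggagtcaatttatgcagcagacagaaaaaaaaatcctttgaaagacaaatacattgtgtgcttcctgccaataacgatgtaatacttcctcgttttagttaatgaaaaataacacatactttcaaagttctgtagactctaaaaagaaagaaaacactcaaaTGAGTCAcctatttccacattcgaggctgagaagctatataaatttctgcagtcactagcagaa
MMP10, chr11:102780629-102780878, minus strand: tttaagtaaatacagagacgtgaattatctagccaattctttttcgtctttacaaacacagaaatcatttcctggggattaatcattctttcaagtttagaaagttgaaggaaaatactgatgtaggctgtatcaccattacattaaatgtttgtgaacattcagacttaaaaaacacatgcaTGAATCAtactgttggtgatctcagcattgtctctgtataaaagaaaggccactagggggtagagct
PLAUR, chr19:43670339-43670365, minus strand: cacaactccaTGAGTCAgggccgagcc
TIMP1, chrX:47582186-47582407, plus strand: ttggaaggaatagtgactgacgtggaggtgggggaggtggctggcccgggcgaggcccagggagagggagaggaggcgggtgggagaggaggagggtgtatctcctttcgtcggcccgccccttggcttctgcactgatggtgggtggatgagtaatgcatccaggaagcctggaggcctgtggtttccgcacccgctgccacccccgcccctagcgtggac
Counted from the RefSeq start, the match begins 67 bases upstream in MMP7 and also 67 bases upstream in MMP10, and 186 bases upstream in PLAUR. A match describes letters only and was not tested as a binding site, and a missing exact match does not exclude such a site.

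BT-549 cells held transcripts of a few members in abundance. At least 100 TPM on average in either medium was reached by 7 members, which were MMP14, ADAM9, TIMP1, TIMP2, PLAU, PLAUR and SERPINE2, while 11 members stayed under 1 TPM in all 6 libraries. MMP14, the membrane-type MMP that cuts collagen at the cell surface and activates pro-MMP2, had the highest level in ACM at 633 ± 152 TPM (SD, n = 3), against 423 ± 133 TPM in UCM. The next levels in ACM were TIMP1 at 345 ± 51.7 TPM, PLAU at 312 ± 40.7 TPM, ADAM9 at 308 ± 24.3 TPM and TIMP2 at 275 ± 15.0 TPM. Among these 4, the libraries of neighbours in the order overlapped in TPM, while all MMP14 libraries lay above all TIMP1 libraries. In UCM the order was MMP14, ADAM9 at 293 ± 5.41 TPM, TIMP2 at 263 ± 9.48 TPM, TIMP1 at 256 ± 18.9 TPM and PLAU at 186 ± 46.9 TPM, and there the MMP14, ADAM9 and TIMP2 libraries were apart from each other, whereas TIMP2 overlapped with TIMP1 and TIMP1 with PLAU.

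**Figure D1:**
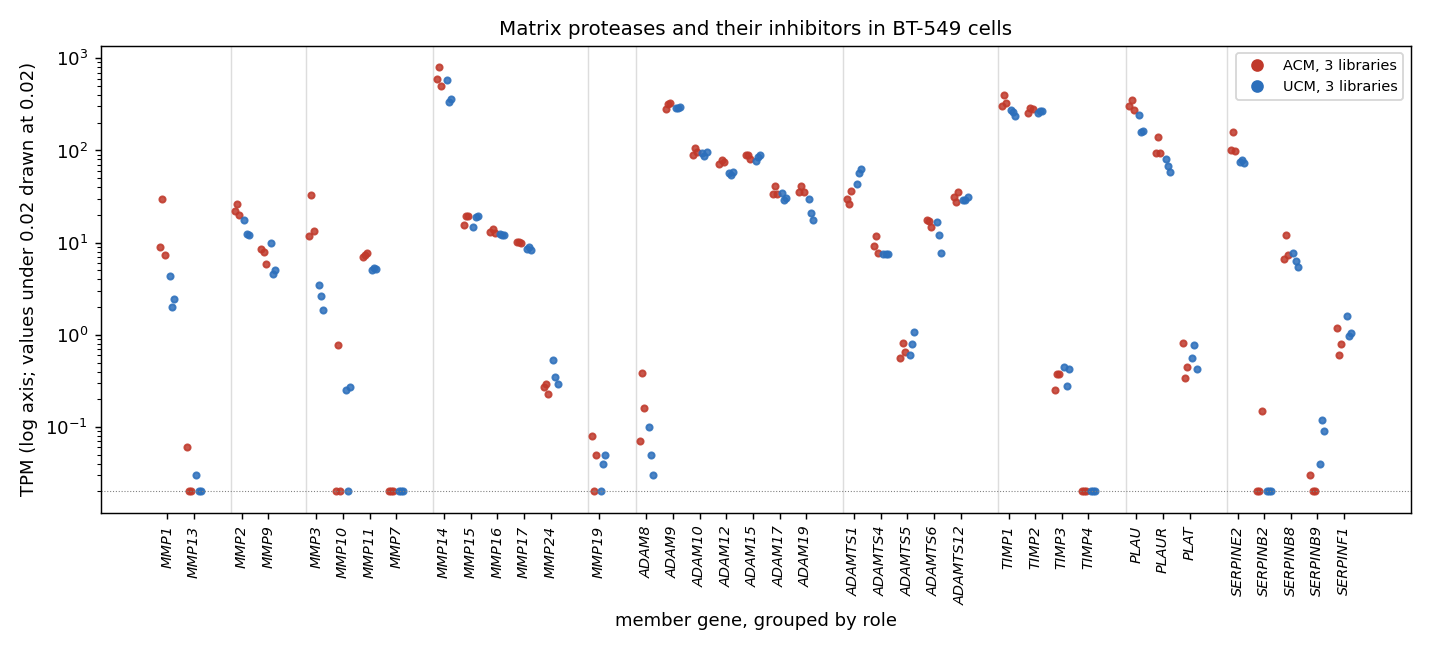
Level of each member in TPM on a log axis, one point per library, with ACM in red, UCM in blue, members arranged by role and values under 0.02 TPM drawn at 0.02. MMP14, TIMP1, TIMP2, ADAM9 and PLAU stand above the other members in both media, and 11 members lie under 1 TPM in every library.

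Across the 29 tested members, 4 rose in ACM at an edgeR adjusted p at or below 0.05 (MMP2, MMP3, ADAM12 and TIMP1), 1 fell (ADAMTS1) and 24 did not pass. That is 17.2% of the tested members, where 5.56% of all 14451 tested genes passed, 3.35% with a rise and 2.21% with a fall. At the thresholds of the study, an unadjusted p at or below 0.05 with a log2 fold change of at least 0.58 either way, 10 members were higher and 1 lower (37.9% of those tested, against 5.83% of all genes, 4.12% higher and 1.71% lower). Fold changes compare ACM with UCM on the CPM scale, and their median was 0.23 over the tested members and -0.01 over all tested genes. ACM was the higher medium for 24 of the 29, or 82.8%, against 48.1% of all tested genes. All 3 ACM libraries lay above all 3 UCM libraries in 12 members and below them in 1, or 44.8% of the members, against 29.0% of all genes (13.9% above and 15.1% below). The members were chosen with earlier results of these data known, so these shares carry no test and do not measure an enrichment.

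**Figure D2:**
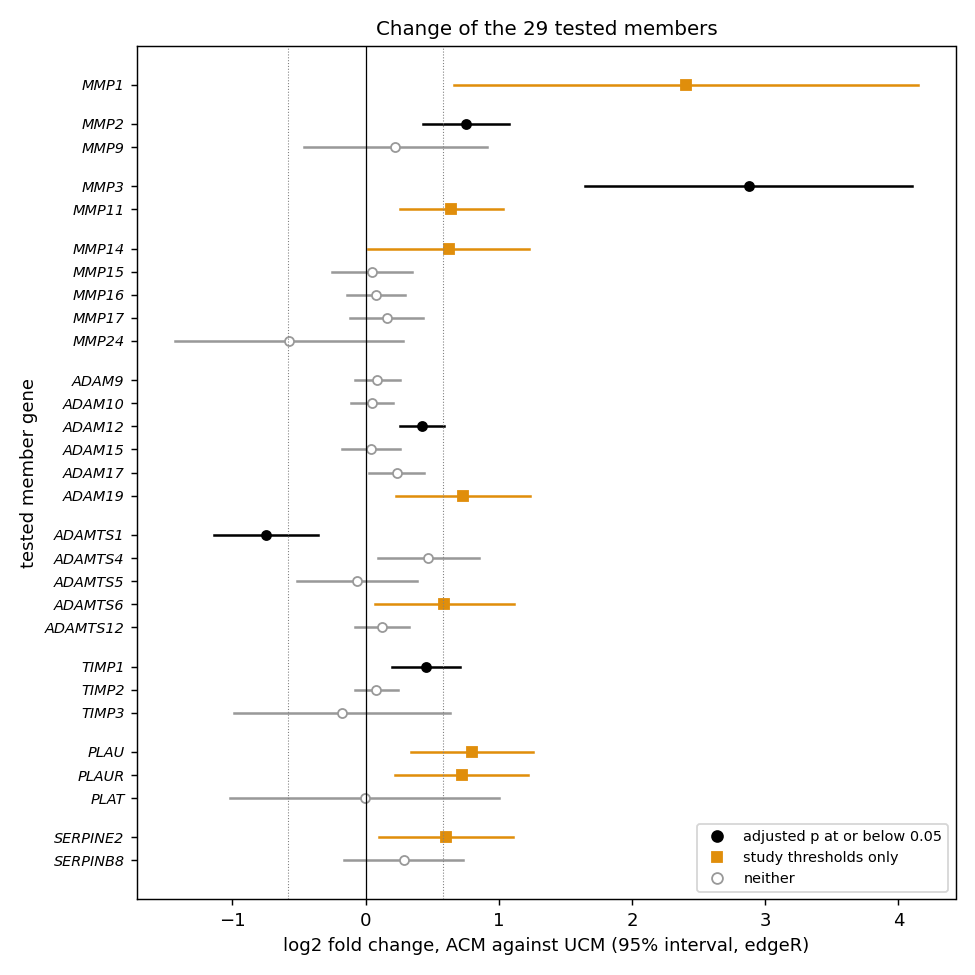
Log2 fold change of ACM against UCM for the 29 tested members, with 95% confidence intervals from the edgeR fit in black at an adjusted p at or below 0.05, as orange squares at the thresholds of the study alone and open otherwise, and with dotted lines at -0.58 and 0.58. MMP3 (2.88) and MMP1 (2.41) lie furthest to the right with wide intervals, and ADAMTS1 (-0.75) is the one member with a called fall.

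The secreted MMPs held the members with the widest change. MMP3 (stromelysin 1, chr11:102835801-102843609, minus strand), which cuts proteoglycans and fibronectin and activates other pro-MMPs, stood at 13.0, 36.3 and 14.3 CPM in ACM replicates 1, 2 and 3 and at 3.70, 2.85 and 1.98 CPM in UCM. Every ACM library lay well above every UCM library, and replicate 2 stood apart within ACM. MMP3 rose by a log2 fold change of 2.88 (SE 0.50, 95% interval 1.65 to 4.11, edgeR adjusted p = 0.0329), a call that ended when every gene with at least 1 count was fitted (edgeR adjusted p = 0.105). MMP1 (interstitial collagenase, chr11:102789401-102798160, minus strand) stood at 10.7, 36.6 and 8.70 CPM in ACM and at 5.12, 2.42 and 2.86 CPM in UCM. Its groups did not overlap either, but the same ACM replicate 2 held most of the difference, and the log2 fold change of 2.41 (SE 0.70, 95% interval 0.66 to 4.15) had an edgeR adjusted p of 0.118. Without ACM replicate 2 the log2 fold change of MMP1 was 1.47.

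MMP2 (gelatinase A, chr16:55389700-55506691, plus strand), which cuts denatured collagen and the type IV collagen of basement membranes, stood at 41.7, 56.7 and 42.7 CPM in ACM and at 32.5, 25.5 and 25.5 CPM in UCM. The groups did not overlap, and MMP2 rose 1.68-fold (log2 fold change 0.75, SE 0.14, edgeR adjusted p = 0.0212), a call that ended with effective lengths as offsets (edgeR adjusted p = 0.0618) and under limma on log2(TPM + 1) (0.0722) and log2(TPM + 0.1) (0.0694). MMP9 (gelatinase B) read 12.5, 11.7 and 8.42 CPM in ACM and 13.9, 6.61 and 7.23 CPM in UCM. Its highest library was a UCM one, the groups overlapped, and the 95% interval of the log2 fold change ran from -0.47 to 0.91. MMP11 (stromelysin 3, on chromosome 22) stood at 8.27, 9.69 and 10.2 CPM in ACM and at 5.16, 5.65 and 7.23 CPM in UCM, with no overlap. Its log2 fold change of 0.64 (SE 0.17) passed the thresholds of the study and had an edgeR adjusted p of 0.0595.

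Among the 5 membrane-type MMPs, 4 were higher in ACM and none was called. MMP14 (chromosome 14) stood at 1060, 1477 and 897 CPM in ACM and at 969, 637 and 621 CPM in UCM. UCM replicate 1 lay above ACM replicate 3, so the groups overlapped, and the log2 fold change of 0.62 (SE 0.25, 95% interval 0.02 to 1.23) had an edgeR adjusted p of 0.202. MMP15 and MMP16 had log2 fold changes of 0.05 (95% interval -0.25 to 0.35) and 0.08 (-0.14 to 0.30), so that a change of 1 log2 unit lay outside both intervals. MMP24 had 12 to 32 counts per library, and it is overlapped by MMP24OS on the other strand with 8363 counts in all against 108 for MMP24. The strand setting of the counting is not given in the sources used here, so the reads of MMP24 cannot be assigned with certainty.

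The other 4 MMPs had too few reads to test. MMP10 (stromelysin 2), which lies next to MMP1, had 9 counts in ACM replicate 2 and none in the other two ACM libraries, and 3, 0 and 1 counts in UCM. MMP13 (collagenase 3) had at most 2 counts and MMP19 at most 2 in a library. MMP7 (matrilysin) had no count in any library, where 3 counts would correspond to 0.142 to 0.175 CPM depending on the library.

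**Figure D3:**
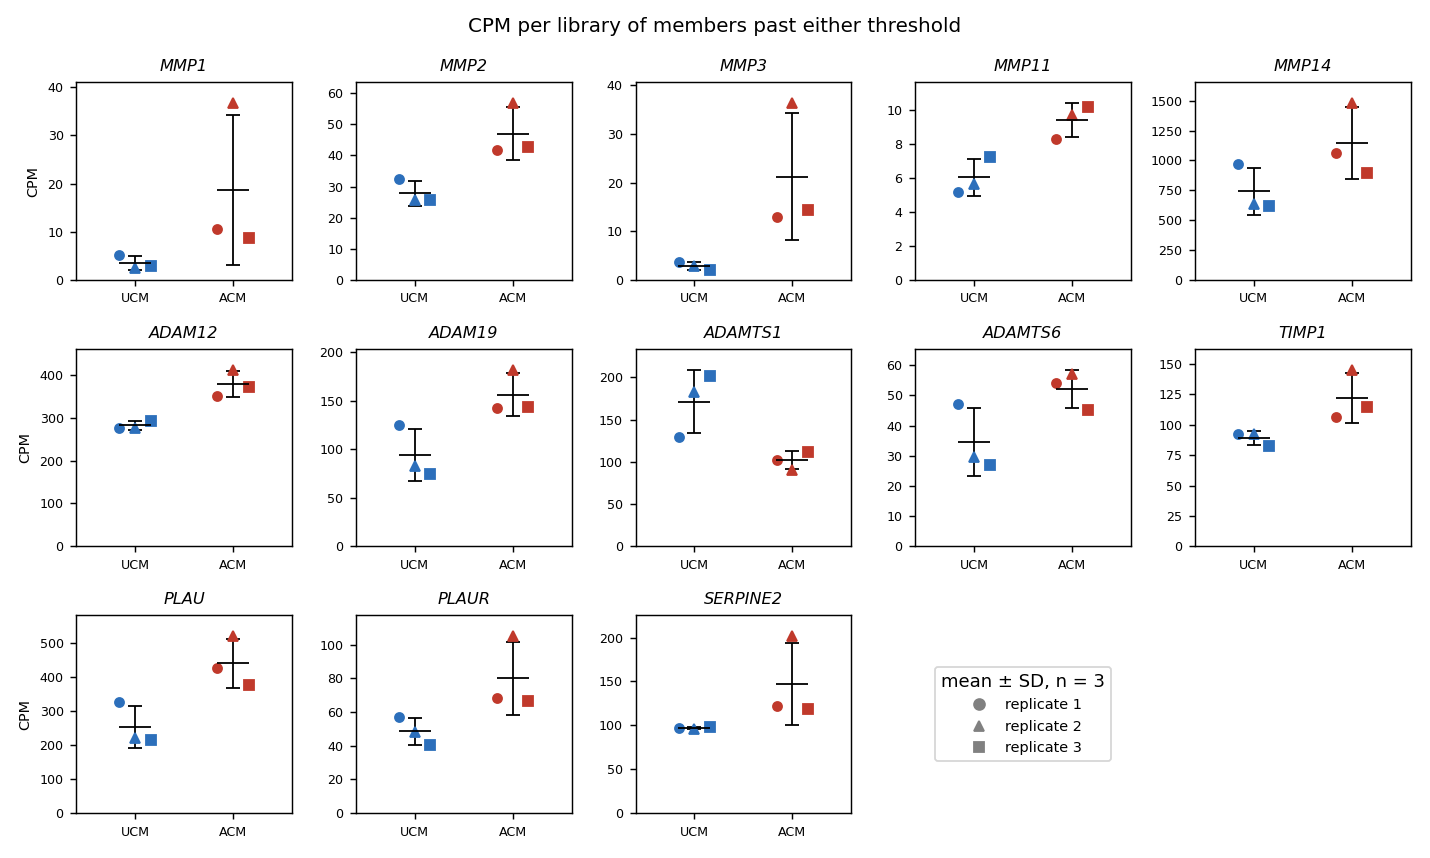
CPM of members past either threshold in each library, with one panel per gene, one point per replicate, a line at the group mean and whiskers of 1 SD (n = 3). ACM replicate 2 is the highest ACM library in MMP1, MMP3 and SERPINE2, and UCM replicate 1 is the highest UCM library in MMP14, ADAM19, ADAMTS6 and PLAU.

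All 6 tested ADAMs were higher in ACM, and 1 of them, ADAM12, passed the test. ADAM12 (meltrin alpha, chr10:126012381-126388477, minus strand), which cuts insulin-like growth factor binding proteins and is known from mesenchymal cells, stood at 352, 411 and 371 CPM in ACM and at 275, 277 and 293 CPM in UCM. Its 3 UCM libraries were close together and all below ACM, and it rose 1.34-fold (log2 fold change 0.42, SE 0.07, 95% interval 0.26 to 0.59, edgeR adjusted p = 0.0120). ADAM19 (meltrin beta), a sheddase of neuregulin, stood at 143, 182 and 144 CPM in ACM and at 125, 82.6 and 74.7 CPM in UCM. The groups did not overlap, with UCM replicate 1 above the other two UCM libraries, and the log2 fold change of 0.73 (SE 0.21) had an edgeR adjusted p of 0.103.

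The 4 other tested ADAMs were not called. ADAM9, the most abundant ADAM, stood at 758, 884 and 857 CPM in ACM and at 762, 791 and 799 CPM in UCM, with overlapping groups and a log2 fold change of 0.09 (95% interval -0.08 to 0.25). TM2D2 overlaps ADAM9 on the other strand, with 9246 counts against 91911. ADAM10, which cuts Notch and cadherins, and ADAM15 had log2 fold changes of 0.05 (-0.11 to 0.20) and 0.04 (-0.18 to 0.26). ADAM17, which releases TNF and ligands of the EGF receptor, had 0.23 (0.03 to 0.44) with an edgeR adjusted p of 0.162, and IAH1 overlaps it on the other strand with 2056 counts against 9434. ADAM8, known from leukocytes, had 1 to 4 counts per library and was not tested.

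ADAMTS1 was the one member called lower. This secreted enzyme (chr21:26835755-26845409, minus strand) cuts versican and aggrecan, and it stood at 102, 90.8 and 112 CPM in ACM and at 130, 183 and 202 CPM in UCM. All ACM libraries lay below all UCM libraries, with UCM replicate 1 nearest to ACM, and the log2 fold change was -0.75 (SE 0.17, 95% interval -1.14 to -0.36, edgeR adjusted p = 0.0474). ADAMTS6 went the other way, at 54.1, 57.2 and 45.2 CPM in ACM and at 47.3, 29.5 and 26.9 CPM in UCM. UCM replicate 1 exceeded ACM replicate 3, so the groups overlapped, and the log2 fold change of 0.59 (SE 0.22) had an edgeR adjusted p of 0.169. ADAMTS4, an aggrecanase, had a log2 fold change of 0.47 (edgeR adjusted p = 0.136) without overlap between the groups, and its reads, like those of MMP24, cannot be assigned with certainty. ADAMTS12 and ADAMTS5 had 0.12 and -0.07, and neither was called.

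Of the 4 TIMPs, 3 were tested and 1 rose. TIMP1 (chrX:47582408-47586789, plus strand, within an intron of SYN1 on the other strand) stood at 107, 145 and 115 CPM in ACM and at 92.5, 92.1 and 82.6 CPM in UCM. The groups did not overlap, and TIMP1 rose 1.37-fold (log2 fold change 0.45, SE 0.11, edgeR adjusted p = 0.0493). That call ended with effective lengths as offsets (edgeR adjusted p = 0.0808) and under limma on log2(TPM + 1) (adjusted p = 0.0767) and log2(TPM + 0.1) (adjusted p = 0.0735). TIMP2, which blocks MMP2 but at low amounts helps MMP14 to activate it, stood at 607, 658 and 626 CPM in ACM and at 555, 615 and 619 CPM in UCM, with overlap and a log2 fold change of 0.08 (95% interval -0.08 to 0.24). TIMP3, the TIMP that stays bound to matrix, had 16 to 28 counts per library and a log2 fold change of -0.18. TIMP4 had no count in any library. Summed over the 4 genes, TIMPs made up 561, 689 and 611 TPM in ACM and 525, 531 and 502 TPM in UCM, while the 14 MMPs summed to 693, 950 and 600 TPM and to 654, 402 and 426 TPM. Most of the MMP sum was MMP14 alone, at 595, 801 and 504 TPM in ACM and at 576, 334 and 359 TPM in UCM. MMP14 and TIMP2 stood in TPM ratios of 2.31, 2.81 and 1.79 in ACM and of 2.28, 1.24 and 1.34 in UCM, which overlapped because of UCM replicate 1. MMP14 and TIMP1 stood in ratios of 1.96, 1.99 and 1.53 in ACM and of 2.12, 1.28 and 1.53 in UCM. These too overlapped, and the highest was a UCM one. These sums and ratios carry no test.

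Urokinase and its receptor were higher in ACM without reaching the adjusted threshold in edgeR. PLAU (chromosome 10) stood at 426, 519 and 378 CPM in ACM and at 325, 221 and 215 CPM in UCM, with no overlap and a log2 fold change of 0.80 (SE 0.19, 95% interval 0.34 to 1.25, edgeR adjusted p = 0.0672). PLAUR (chromosome 19), the receptor that holds urokinase at the cell surface, stood at 68.6, 105 and 66.4 CPM in ACM and at 56.8, 48.0 and 40.5 CPM in UCM. It too showed no overlap, and its log2 fold change of 0.72 (SE 0.21) had an edgeR adjusted p of 0.102. Under DESeq2, the method of the study, PLAU (DESeq2 adjusted p = 1.2e-05) and PLAUR (0.00084) were called higher. DESeq2 called 5.27% of all genes higher, against 3.35% in edgeR. C10orf55 overlaps PLAU on the other strand, with 776 counts against 39786. PLAT, the tissue-type activator, had 8 to 22 counts per library and a log2 fold change of -0.01 with a 95% interval of -1.02 to 1.00.

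SERPINE2 (protease nexin 1), an inhibitor of thrombin and urokinase, stood at 122, 201 and 118 CPM in ACM and at 96.3, 96.3 and 98.0 CPM in UCM. The UCM libraries were nearly level and all below ACM, where replicate 2 stood apart, and the log2 fold change of 0.60 (SE 0.21) had an edgeR adjusted p of 0.152. Without ACM replicate 2 the log2 fold change of SERPINE2 was 0.31. SERPINB8 had 0.29 (95% interval -0.16 to 0.73). SERPINB2, the intracellular inhibitor of urokinase, had 1 count over all libraries, SERPINB9 had at most 6 counts and SERPINF1 at most 9, and these 3 were not tested.

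The same libraries recurred at the extremes. Among the 10 members that were higher at the thresholds of the study, UCM replicate 1 was the highest UCM library in 8 (80.0%) and ACM replicate 2 the highest ACM library in 9 (90.0%). Over all 596 genes that were higher at these thresholds, the shares were 54.0% and 72.8%. Without UCM replicate 1 the log2 fold changes of PLAU, ADAM19 and ADAMTS6 came to 1.02, 0.99 and 0.89 with edgeR adjusted p of 0.0058, 0.0030 and 0.0016. Over all genes, 696 were then called higher and 660 lower, against 484 and 320 with all 6 libraries. Without ACM replicate 2 the log2 fold changes of MMP14, PLAUR and ADAMTS6 came to 0.40, 0.48 and 0.52, under the 0.58 of the study. Without UCM replicate 2 none of the 5 called members passed, with edgeR adjusted p of 0.0984 for MMP2, 0.154 for MMP3, 0.0698 for ADAM12, 0.149 for TIMP1 and 0.168 for ADAMTS1, although each kept its direction. That fit called 125 higher and 68 lower over all genes, so calls were lost well beyond the members. ADAM12 passed in 5 of the 6 fits that each left out 1 library, MMP2 and MMP3 in 3, and TIMP1 and ADAMTS1 in 1.

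**Figure D4:**
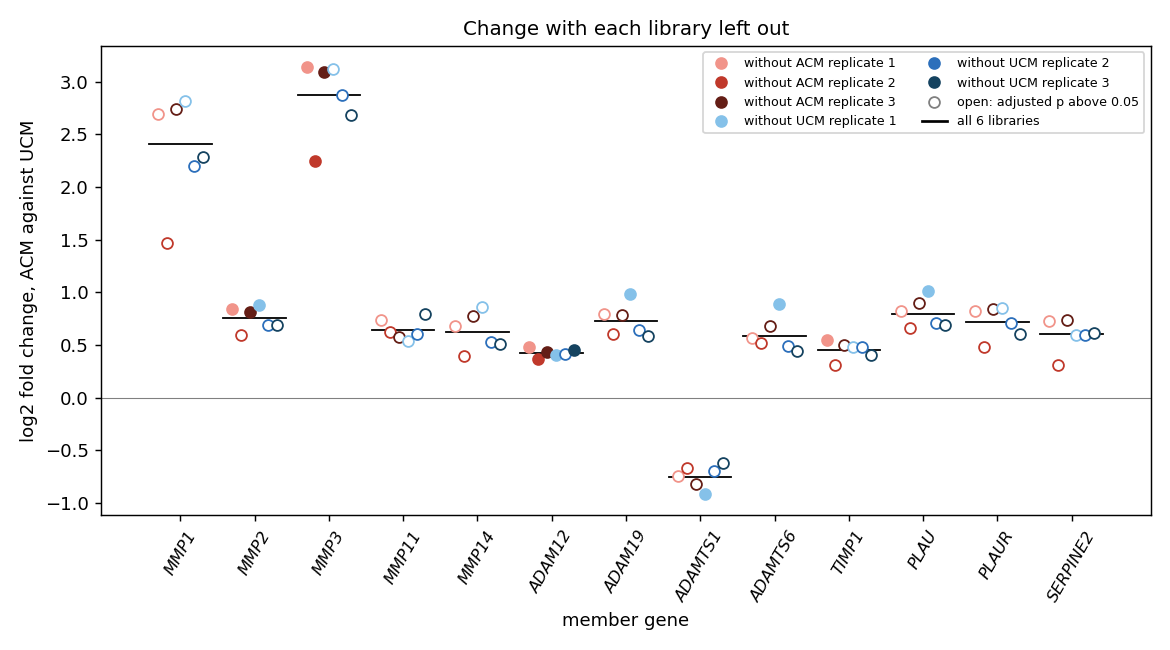
Log2 fold change of the members past either threshold when each library in turn was left out, one point per fit, open where the edgeR adjusted p was above 0.05, with a line at the fit to all 6 libraries. Every point stays on the side of 0 of the full fit, and MMP1 (1.47 to 2.81) and MMP3 (2.25 to 3.14) span the widest ranges.

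Other genes of the protease system gave 4 calls. Of 102 further protease and inhibitor genes, 53 were tested, 38 of them higher and 15 lower, with a median log2 fold change of 0.17; 2 rose, 2 fell and 49 did not pass, which is 7.55% of those tested against 5.56% of all genes. Both genes that rose encode lysosomal cathepsins. CTSB stood at 3051, 4179 and 3284 CPM in ACM and at 2482, 2433 and 2498 CPM in UCM, and it rose by a log2 fold change of 0.50 (SE 0.11, edgeR adjusted p = 0.0305). CTSZ rose by 0.35 (SE 0.08, edgeR adjusted p = 0.0375), and all 13 tested cathepsins and cystatins were higher in ACM, with a median of 0.27. ADAMTS15, a versican-cutting relative of ADAMTS1, fell from 78.9, 84.4 and 95.7 CPM in UCM to 57.8, 47.7 and 66.4 CPM in ACM (log2 fold change -0.59, SE 0.12, edgeR adjusted p = 0.0290). PRSS23, a secreted serine protease, fell with a log2 fold change of -0.38 (SE 0.09, edgeR adjusted p = 0.0321). At the thresholds of the study, 5 genes of this list were higher (MMP25, ADAM28, TFPI2, CTSL and FAP) and 1 lower (ADAMTS15), or 11.3% of those tested against 5.83% of all genes. MMP25 had only 9 to 36 counts per library and ADAM28 only 4 to 33, and the groups of FAP overlapped. This list too was chosen with earlier results known, so its shares carry no test.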

How the data were processed

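RNA of 6 libraries, 3 of BT-549 cells in ACM and 3 in UCM, was polyA-enriched and read in pairs. Per the labels and the methods of the study, the authors used Trim Galore for trimming, STAR for alignment against GRCh38 and RSEM for gene levels, and the versions, annotation and strand setting are not given in the sources used here. The authors deposited, per gene and library, an expected count, in which reads fitting several genes are shared out, and TPM, which divides by the effective length of the gene (also deposited) and scales to the library. FPKM columns and an authors' table of fold changes and p-values were not used.

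Identifiers were named through GENCODE 44, in which 61547 of 63140 matched with their version and 62541 had a symbol. Expected counts were rounded and fitted in R 4.3.3 with edgeR 4.0.16 (TMM, filterByExpr, robust quasi-likelihood test, condition as the only term, Benjamini-Hochberg adjustment over 14451 genes). CPM used the total of the tested genes times the TMM factor. Intervals are 95% intervals of the fit. Libraries held 17135288 to 21053257 counts, at which 3 counts equal 0.142 to 0.175 CPM, and floors cover counting error only. Counts were whole (within 0.005) in all libraries for 33 members, while MMP19, MMP24, ADAM17, TIMP2 and PLAU shared reads. The fitting was tested on simulated data.

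Members and lists were chosen with earlier results of these data known. Values are given library by library for members called at an adjusted p at or below 0.05, past the thresholds of the study or at 100 TPM or more; of the others, up to 2 of the most abundant per role were examples, and called genes were named from the further list, of which 1 gene that the rule also names is not reported here. ADAM8, ADAM17, ADAMTS5, MMP17, MMP24, the untested members, the genes overlapping members and other MMPs of the cluster were named after their values were seen. The same holds for CFD, CD68, the genes of the further list past only the thresholds of the study, and the cathepsins and cystatins as a group. Alternatives were DESeq2 1.42.0, RLE factors, other count filters, effective lengths as offsets, limma 3.58.1 on log2(TPM + 1) and log2(TPM + 0.1), a replicate block and leaving out each library.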

Additional observations from a re-analysis of the deposited data

How the results depend on the processing

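With 3 libraries per medium the member calls rest on few samples. Of the main counts, 4 members called higher and 1 lower, DESeq2 gave 12 higher, effective lengths as offsets gave 2 and limma on log2(TPM + 0.1) gave 2, while over all genes DESeq2 called 762 higher and these offsets 272. Besides the 4 called members, those higher under DESeq2 were PLAU (DESeq2 adjusted p = 1.2e-05), ADAM19 (0.00036), PLAUR (0.00084), SERPINE2 (0.0049), MMP1 (0.014), ADAMTS6 (0.019), MMP11 (0.029) and ADAMTS4 (0.047). Over the fits that left out 1 library, members called higher ranged from 0 (without UCM replicate 2) to 5, those called lower from 0 to 1, members higher at the thresholds of the study from 6 (without ACM replicate 2, UCM replicate 2 or UCM replicate 3) to 11 against 10, and the median log2 fold change from 0.20 to 0.40 against 0.23. Members called higher were also 2 without ACM replicate 2 and 1 without UCM replicate 3, and the called fall of ADAMTS1 was kept only without UCM replicate 1. The median was 0.38 without ACM replicate 3 and 0.40 without UCM replicate 1. Over all genes, those called higher ranged from 125 (without UCM replicate 2) to 696 (without UCM replicate 1) with 1 library left out.

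For the further protease genes, 2 called higher of 53 tested became 7 under DESeq2 and 12 of 80 with every gene of at least 1 count. With 1 library left out they ranged from 0 to 6. Over all genes, those called higher were 762 under DESeq2 and 1045 of 25486 with that filter, against 484 of 14451. The 2 called lower became 1 with length offsets and 0 under limma on log2(TPM + 1) and log2(TPM + 0.1), and ranged from 0 to 3 with 1 library left out. Over all genes, those called lower in these fits were 134 with length offsets and 132 and 138 under limma, against 320. The cause of these shifts was not tested.

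The replicate block gave 6 members higher and 1 lower, 7 higher at the thresholds of the study, and 9 further protease genes higher. Over all 14451 genes the block called 909 higher (6.29%) and 703 lower (4.86%), against 484 (3.35%) and 320 (2.21%) without it. Deviations of same-numbered libraries correlated by 0.377, 0.0376 and 0.259, and replicate 3 of the libraries did not correlate best with its own number, so the numbers were not taken as pairs.

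The sign turned for 5 genes near 0. With 1 library left out, the log2 fold change of MMP15 ranged from -0.078 to 0.16 (-0.02 without ACM replicate 2), that of ADAM10 from -0.011 to 0.096, that of ADAM15 from -0.049 to 0.11 (-0.03 without ACM replicate 2), that of TIMP3 from -0.35 to 0.012 and that of PLAT from -0.24 to 0.33 (0.24 without ACM replicate 2). PLAT was also at 0.0019 under DESeq2 and 0.0016 with RLE factors. Of the other values of single genes under an alternative, 328 kept their direction and their side of the threshold, 49 kept the direction but lost the call and 18 gained one.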
